A study of Mus musculus with 6 samples.

Results

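The genes described here encode the proteases that cut the matrix around cells, the inhibitors that hold them back, and the proteins that make, bind or break down hyaluronan. They were chosen by name in the deposited gene table: matrix metalloproteases (Mmp), ADAM, ADAMTS and ADAMTS-like genes, the TIMP inhibitors, the plasminogen activators Plau and Plat with serpin inhibitors such as Serpine2, and Has2, Has3, Hyal1, Cemip and Cd44. The rule found 68 genes among the 15016 listed. RNA came from wild-type mouse cochlear organoids, which are cultures grown in 3 dimensions from progenitor cells of the hearing organ, with 3 libraries from stiff gels and 3 from soft gels. Both groups had the same media: expansion for 8 to 10 days with EGF, bFGF, IGF, CHIR99021, valproic acid, 2-phospho-L-ascorbic acid and 616452, and then differentiation with 3 µM CHIR99021, which blocks the kinase GSK3, and 5 µM LY411575, which blocks gamma-secretase. The gels were hybrids of modified gelatin and hyaluronic acid that carry the RGD adhesion peptide, and organoids were moved into a stiff or a soft one when differentiation began. The sources used here do not give the stiffness of each gel, the age of the animals or the time spent in the gels. The study asks how the stiffness of the surroundings acts on inner ear progenitor cells.

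Most MMPs, ADAMs and ADAMTSs are zinc proteases made as inactive precursors. TIMPs bind their active site, so the RNA of a protease says nothing on its own about its activity. MMPs cut collagens and other matrix proteins, ADAMs mostly release proteins from the cell surface, and ADAMTSs cut proteoglycans or process collagen precursors. Gelatin is denatured collagen, the substrate after which gelatinases are named, and hyaluronic acid is the ligand of Cd44, so the gels themselves hold substrates of these proteins.

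Levels are given as FPKM, a read count corrected for the length of the gene and the size of the library. A fold change is the stiff mean minus the soft mean of log2(FPKM + 1), a scale that shrinks the changes of scarce genes. Calls were made with limma at an adjusted p (Benjamini-Hochberg, over all tested genes) under 0.05. Libraries held 16108468 to 17899389 reads. The first soft library stood between the other soft libraries and the stiff ones for many genes: it was the soft library nearest to the stiff group for 7 of the 11 genes called below. Its weight is shown by giving results with and without it. The library kit does not mark strand, so reads of genes that overlap cannot be told apart. Nothing in the labels says that libraries came from separate cultures, so a p-value covers the spread among these 6 libraries and no more, and that spread may be technical.

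Stiff gels had less RNA of the inhibitor Timp1, of the proteases Mmp7, Adamts17, Adam9, Adam19, Adam8 and Plau, and of the hyaluronan synthase Has2, and more RNA of Adamts12, Adamts6 and Adamts19. That is 3 genes higher and 8 lower of 43 tested (limma, adjusted p under 0.05), or 11 of 43 where 5.81% of all 11780 tested genes were called (3.13% higher and 2.68% lower). Of the 68 genes, 38 passed the filter of 1 FPKM in both groups and 25 passed in neither. The remaining 5, among them Plau and Has2, passed only through soft gels, where they were higher, so they could only enter the test as lower genes. The median fold change of the 43 was -0.07 on the log2 scale, against 0.03 over all tested genes. It was 0.02 without stiff replicate 3, 0.0033 without soft replicate 3 and -0.115 without soft replicate 1, so its sign rests on single libraries. With every listed gene tested and no filter, 2 genes were higher and 7 lower of 68, where 3.39% of all genes were called (1.92% higher and 1.47% lower). In the authors' deposited table, which comes from a count model, 6 of the 68 were higher and 16 lower at q under 0.05, where 8.12% of all genes were (3.44% higher and 4.68% lower). Groups did not overlap for 14 genes that were above and 13 that were below in stiff gels, and 24.8% of all listed genes (25.9% of the tested ones) had such groups. Without soft replicate 1, 5 genes were higher and 16 lower of 44 tested, where 13.8% of all genes were called (7.28% higher and 6.5% lower). Since that library lies nearest to the stiff group for many genes, leaving it out widens the differences, and the calls added by it are given below as descriptions.

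**Figure D1:**
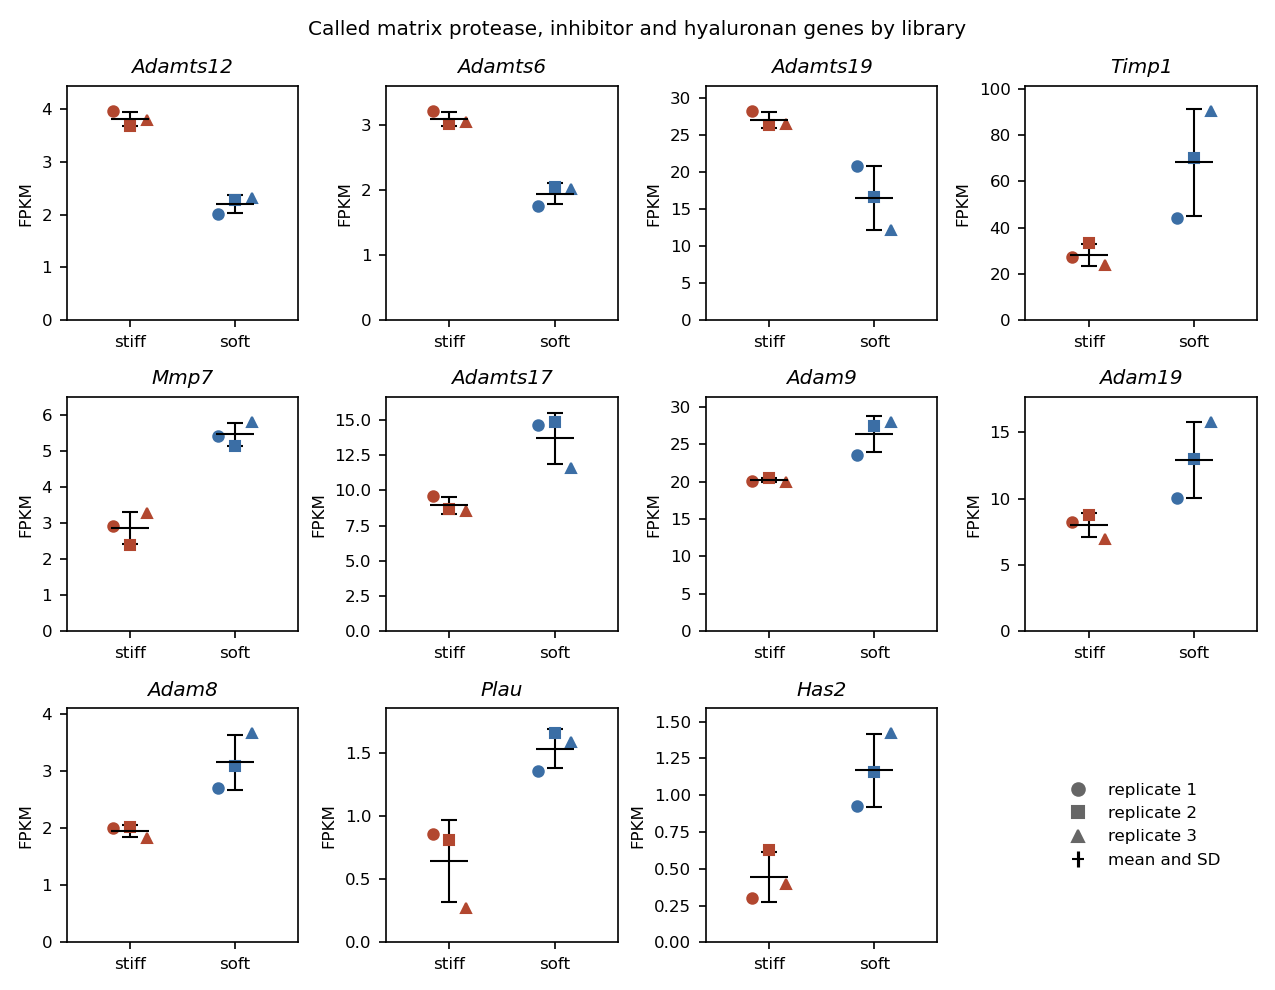
FPKM of the 11 called genes in each library, stiff left and soft right, with the mean and SD over 3 libraries. Adamts12, Adamts6 and Adamts19 lie higher in stiff gels and the other 8 lie lower, and no stiff library overlaps a soft one in any panel.

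The spread over families is shown in the plot of fold changes. Among ADAMTS genes 3 of 11 tested were higher and 1 lower. Among MMPs 1 of 10 was lower and 0 higher, and among ADAMs 3 of 10 were lower and 0 higher. Fold changes of the 43 ran from -1.29 for Adamts4, which was not called, to 0.70 for Adamts19.

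**Figure D2:**
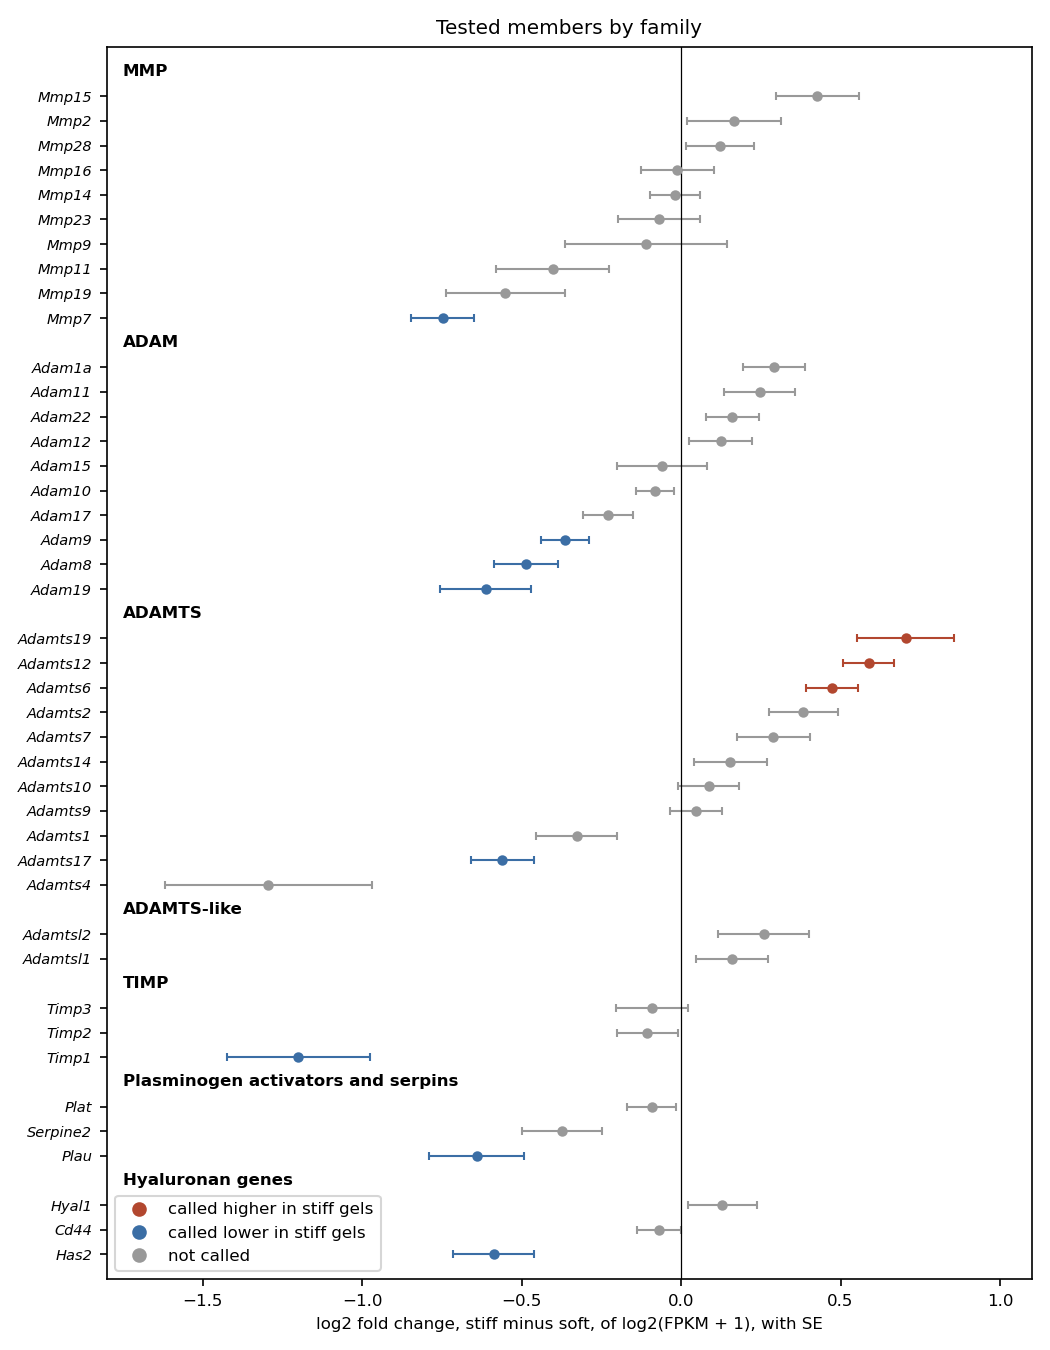
Log2 fold change (stiff minus soft, of log2(FPKM + 1)) with its SE for tested genes, ordered by family and coloured by call. The values run from -1.29 to 0.70, and called genes of opposite direction occur only within the ADAMTS family among the families shown.

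Promoter sequences are shown for the MMP genes in 1 stretch of chromosome 9, because neighbours there differed in direction: Mmp7 fell in stiff gels while Mmp10 stood higher in every stiff library. The 5 listed MMP genes of this chromosome lie within 427 kb of each other. These are the 100 bases before each gene's start, from RefSeq (build GRCm38.p6, plus strand), and capitals mark the AP-1 motif TGANTCA, the letters bound by Fos and Jun proteins and long known from MMP promoters.
Mmp13, chr9:7272414-7272513: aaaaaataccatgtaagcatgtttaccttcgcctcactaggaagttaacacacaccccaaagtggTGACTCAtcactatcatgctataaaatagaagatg
Mmp3, chr9:7445722-7445821: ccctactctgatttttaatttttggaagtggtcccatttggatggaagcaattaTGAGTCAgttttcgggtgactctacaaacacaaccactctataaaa
Mmp10, chr9:7502242-7502341: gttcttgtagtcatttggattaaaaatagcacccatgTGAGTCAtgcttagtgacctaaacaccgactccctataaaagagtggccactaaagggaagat
Mmp8, chr9:7558329-7558428: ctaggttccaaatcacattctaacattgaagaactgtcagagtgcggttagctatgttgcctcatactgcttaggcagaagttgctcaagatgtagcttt
Mmp7, chr9:7691990-7692089: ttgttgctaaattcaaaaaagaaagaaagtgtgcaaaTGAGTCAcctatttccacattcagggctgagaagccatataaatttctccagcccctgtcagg

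The motif begins 63 bases before the start of both Mmp7 and Mmp10, 46 before that of Mmp3 and 35 before that of Mmp13, and these letters are not in the 100 bases shown for Mmp8. Searched on both strands over windows of 250 bases before to 50 after a start, it was in 5 of 45 promoters of the genes described here (11.1%) and in 7.81% of all 32851 promoters. RefSeq promoters were found for 41 of the 68 genes. Mmp7 has a second listed start without the motif. A match is a description of letters and not of binding.

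Timp1, a secreted inhibitor of most MMPs (chromosome X, 20870166 to 20874737), had 27.2, 33.4 and 24.0 FPKM in stiff gels, against 44.4, 70.0 and 90.3 FPKM in soft gels. Every stiff library was below every soft one, and soft replicate 1 was the lowest of the soft group. It fell by 1.20 ± 0.22 on the log2 scale (SE; limma adjusted p = 0.0200), and by 1.48 without soft replicate 1 (limma adjusted p = 0.000418). Without stiff replicate 1, stiff replicate 3 or soft replicate 2 it was not called (limma adjusted p up to 0.0888). Timp1 lies inside Syn1 on the opposite strand, and Syn1 was at 0.157 to 0.232 FPKM in stiff and 0.180 to 0.313 FPKM in soft gels. The other two listed TIMPs were not called. Timp3, which binds to the matrix and also blocks ADAM and ADAMTS proteases, had 129, 154 and 122.9 FPKM in stiff gels, against 126, 144 and 163 FPKM in soft gels. Timp2, an inhibitor that also helps Mmp14 activate Mmp2, had 41.8, 43.3 and 36.1 FPKM in stiff gels, against 40.5, 41.2 and 49.2 FPKM in soft gels. Groups overlapped for both (limma adjusted p = 0.710 and 0.590).

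The 250 bases before the Timp1 start (chrX:20869916-20870165, GRCm38.p6, RefSeq, plus strand) are shown because it fell most among the called genes, with the TEAD motif GGAATG in capitals.
Timp1: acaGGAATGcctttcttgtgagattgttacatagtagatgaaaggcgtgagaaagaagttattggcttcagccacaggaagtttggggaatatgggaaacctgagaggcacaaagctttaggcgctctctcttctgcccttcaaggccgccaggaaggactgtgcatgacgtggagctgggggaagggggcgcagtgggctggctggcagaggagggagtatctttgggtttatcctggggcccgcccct

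TEAD proteins carry YAP and TAZ to DNA. Their motif was in 3 of the 45 promoters searched (6.67%) and in 14.7% of all promoters, on either strand. Among the 9 promoters of called genes, from 6 genes, 2 held it (22.2%), and 2 held the AP-1 motif (22.2%).

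Timp1 held a smaller share of the inhibitor RNA in stiff gels. It made up 13.8% ± 0.695 of the summed TIMP FPKM in stiff gels and 26.1% ± 4.52 in soft gels (SD, n = 3 each). The TIMP sum was 198, 231 and 183 FPKM in stiff gels, against 211, 256 and 303 FPKM in soft gels, so the groups overlapped. Summed over the 51 genes of the MMP, ADAM and ADAMTS families, here called the metalloprotease sum, levels were 633, 651 and 569 FPKM in stiff gels. They were 564, 646 and 649 FPKM in soft gels, so these groups also overlapped. The log2 ratio of the TIMP sum to the metalloprotease sum was -1.675, -1.495 and -1.635 in stiff gels, against -1.421, -1.338 and -1.100 in soft gels. All 3 stiff ratios were below all 3 soft ones, with a difference of -0.32 between the means, and no test is given for this description. Timp1 is part of the TIMP sum and groups of Timp2 and Timp3 overlapped, so the ratio does not show a shift of the other TIMPs. The sums weight genes by their level, and without Timp3 and Mmp14, the gene with the highest FPKM on each side, the difference was -0.68. The same limit holds for that value, since Timp1 stays in the ratio and takes a larger part of it. No ratio without Timp1 is given.

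**Figure D3:**
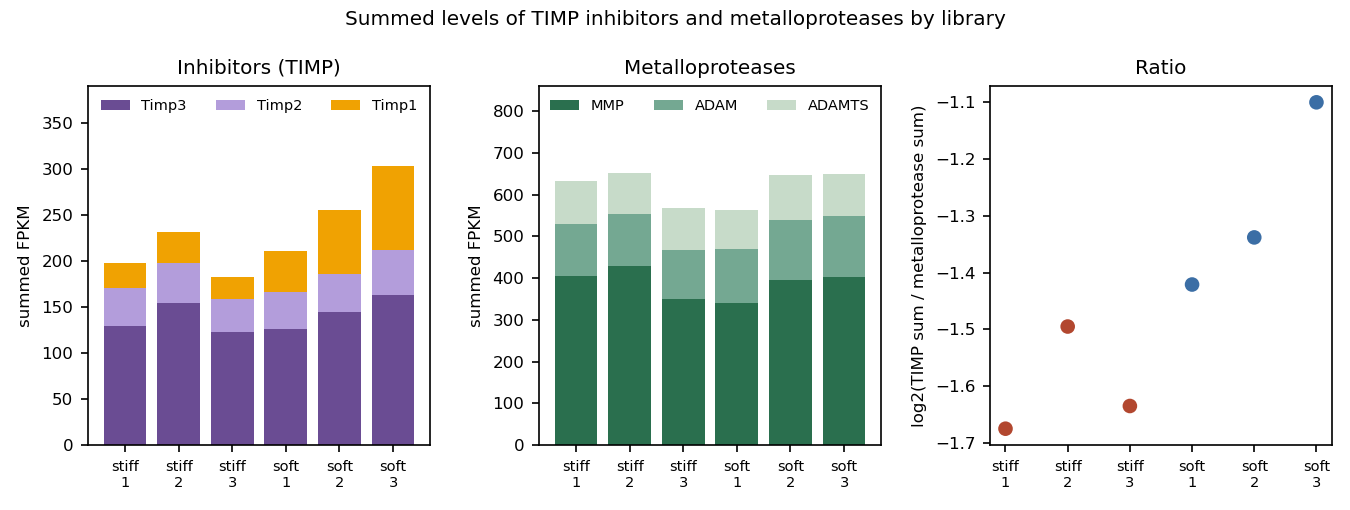
Summed FPKM per library of the TIMP genes (left) and of the MMP, ADAM and ADAMTS genes (middle), and the log2 ratio of both sums (right), stiff libraries left of soft ones. Timp1 takes 13.8% of the TIMP sum in stiff gels and 26.1% in soft gels, and the ratio lies between -1.675 and -1.495 in stiff and between -1.421 and -1.100 in soft gels.

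MMP levels ran from 0 to 178 FPKM, and the 5 MMPs above 10 FPKM were not called with all libraries and no block. In the authors' deposited table Mmp15 was higher (q = 0.0132) and Mmp11 lower (q = 0.0368). Mmp14, the membrane protease that activates Mmp2, had 170, 178 and 151 FPKM in stiff gels, against 158, 173 and 174 FPKM in soft gels (limma adjusted p = 0.927). Mmp2, a gelatinase, had 128, 148 and 110 FPKM in stiff gels, against 90.8, 122 and 133 FPKM in soft gels (limma adjusted p = 0.590). Mmp9, the other gelatinase, had 16.5, 23.1 and 9.51 FPKM in stiff gels, against 14.0, 18.8 and 17.8 FPKM in soft gels (limma adjusted p = 0.861). Groups overlapped for all 3, and the sign for Mmp14 and Mmp9 turned when single libraries were left out. Mmp15, a membrane-type MMP, had 59.5, 46.8 and 50.1 FPKM in stiff gels, against 46.3, 37.5 and 32.4 FPKM in soft gels. Its groups just did not overlap, and its log2 fold change was 0.43 with all libraries and no block (limma adjusted p = 0.0920). Among the fits that left out a library it was called only without soft replicate 1 (log2 fold change 0.56, limma adjusted p = 0.00875). With all libraries and the replicate number as a block it was called higher (limma adjusted p = 0.0224). Mmp11, named stromelysin 3 and made mainly by stromal cells, had 16.6, 16.9 and 14.4 FPKM in stiff gels, against 15.1, 26.2 and 24.8 FPKM in soft gels. Soft replicate 1 lay among the stiff libraries, and the log2 fold change of Mmp11 was -0.40 with all libraries (limma adjusted p = 0.227), -0.64 without soft replicate 1 (0.00160), -0.26 without soft replicate 2 (0.538) and -0.30 without soft replicate 3 (0.532).

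Mmp7, matrilysin, a small MMP of epithelia (chromosome 9, 7692090 to 7699585), had 2.92, 2.40 and 3.29 FPKM in stiff gels, against 5.43, 5.16 and 5.81 FPKM in soft gels. The groups were well apart, with soft replicate 1 between the other soft libraries. Its log2 fold change was -0.75 ± 0.10 (SE; limma adjusted p = 0.00918), and it stayed called in each of the 6 fits without a library (limma adjusted p at most 0.0446). These values rest on 46 to 59 reads in stiff and 103 to 116 reads in soft libraries, rebuilt from the FPKM. Mmp10, stromelysin 2, lies in the same stretch and was under the filter, with 15, 40 and 27 reads in stiff gels, against 5, 7 and 8 reads in soft gels. Tested without the filter it stood 0.64 ± 0.15 higher on the log2 scale (SE; limma adjusted p = 0.0614), and the authors' deposited table has 2.07 (q = 0.00597). Without stiff replicate 1 it passed the filter and was called higher (by 0.82 on the log2 scale, limma adjusted p = 0.0447). Mmp10 passed there only through stiff gels, so it could only enter that test as a higher gene. The other listed genes there were near 0: Mmp3 had 0 to 7 reads per stiff library and 0 to 7 per soft library, Mmp13 had 3 to 8 and 2 to 8, and Mmp8 had 0 and 0 to 7. Mmp24, a membrane-type MMP best known from neurons, was also under the filter, at 0.182, 0.257 and 0.130 FPKM in stiff gels, against 0.576, 0.545 and 0.856 FPKM in soft gels. Tested without the filter it was called lower (log2 fold change -0.48 ± 0.08 SE, limma adjusted p = 0.0294). Mmp24 overlaps BC029722, which was at 19.4 to 22.0 FPKM in stiff and 19.9 to 23.0 FPKM in soft gels, far above it, and reads of their shared bases cannot be told apart.

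**Figure D4:**
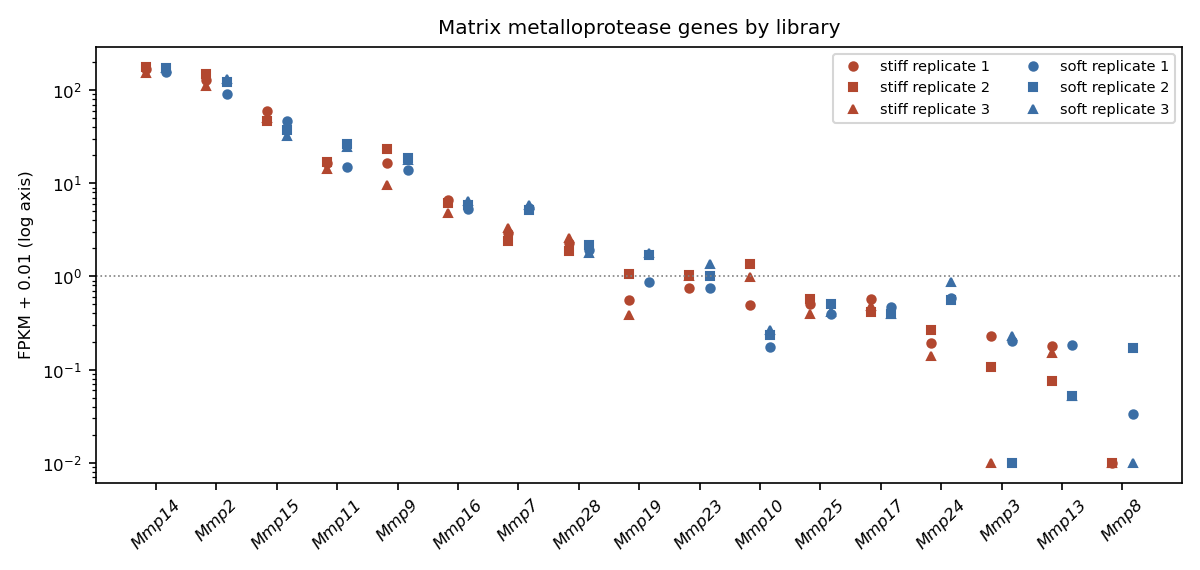
FPKM + 0.01 on a log axis for the 17 listed MMP genes in each library, stiff left of soft for each gene, ordered by mean level; the dotted line marks 1. Mmp14 and Mmp2 lie near or above 100 FPKM in every library with groups that overlap, whereas Mmp7 lies between 2.40 and 3.29 FPKM in stiff and between 5.16 and 5.81 FPKM in soft gels.

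ADAM genes with called changes were all lower in stiff gels, and the main sheddases were not among them. Adam19, a membrane protease with a role in heart development (chromosome 11, 46054502 to 46147347), had 8.25, 8.81 and 6.99 FPKM in stiff gels, against 10.1, 13.0 and 15.8 FPKM in soft gels (-0.61 ± 0.14 on the log2 scale, SE, limma adjusted p = 0.0418; 0.0740 without the filter). Adam9, a widely made sheddase (chromosome 8, 24949611 to 25017040), had 20.1, 20.5 and 19.96 FPKM in stiff gels, against 23.6, 27.4 and 27.9 FPKM in soft gels (log2 fold change -0.36 ± 0.07 SE, limma adjusted p = 0.0267). Adam8, best known from leukocytes (chromosome 7, 139978932 to 139995207), had 2.01, 2.03 and 1.84 FPKM in stiff gels, against 2.71, 3.09 and 3.67 FPKM in soft gels (log2 fold change -0.49 ± 0.10 SE, limma adjusted p = 0.0275). Stiff libraries lay close together for these 3 genes and the soft ones were spread, with soft replicate 1 nearest to the stiff group each time. Among the fits that left out a library, the 3 calls held only in the one without soft replicate 1 (limma adjusted p up to 0.146 for Adam19, 0.107 for Adam9 and 0.104 for Adam8). Of 8 leukocyte marker genes only Cd68 has a row here, at 4.85 to 6.82 FPKM in stiff and 4.58 to 5.69 FPKM in soft gels, and the part of such cells in the level of Adam8 was not tested.

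Adam10, the main sheddase of Notch receptors and cadherins, had 43.9, 42.7 and 44.1 FPKM in stiff gels, against 48.7, 45.7 and 44.1 FPKM in soft gels (limma adjusted p = 0.499). Adam17, which releases TNF and EGF family ligands, had 16.9, 18.8 and 17.6 FPKM in stiff gels, against 19.0, 21.3 and 22.8 FPKM in soft gels (limma adjusted p = 0.128). The groups for Adam17 did not overlap, though by a narrow gap, and it was called lower without soft replicate 1 (log2 fold change -0.30, limma adjusted p = 0.0270). With any other library left out Adam17 was not called (limma adjusted p 0.157 to 0.386). Adam17 overlaps Iah1, at 19.7 to 24.3 FPKM in stiff and 18.5 to 22.1 FPKM in soft gels. Adam15, which carries an integrin-binding motif in human, had 22.4, 24.4 and 19.4 FPKM in stiff gels, against 17.9, 26.0 and 25.8 FPKM in soft gels (limma adjusted p = 0.865). The 6 ADAM genes under the filter reached at most 0.301 FPKM in any library.

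The ADAMTS family held called genes of both directions. Adamts12, which cuts the cartilage matrix protein COMP as its close relative Adamts7 does (chromosome 15, 11064773 to 11349232), had 3.95, 3.68 and 3.79 FPKM in stiff gels, against 2.00, 2.28 and 2.32 FPKM in soft gels. Each stiff value was above each soft one by a gap larger than the spread within either group. Its log2 fold change was 0.59 ± 0.08 (SE; limma adjusted p = 0.00918), and it stayed called in each of the 6 fits without a library (limma adjusted p at most 0.0459). Adamts7 had 3.16, 2.63 and 2.79 FPKM in stiff gels, against 2.35, 2.49 and 1.69 FPKM in soft gels, and was not called (limma adjusted p = 0.177). Adamts6, a relative of the fibrillin-binding Adamts10 (chromosome 13, 104286518 to 104496695), had 3.21, 3.01 and 3.05 FPKM in stiff gels, against 1.76, 2.05 and 2.02 FPKM in soft gels. It was higher by 0.47 ± 0.08 on the log2 scale (SE; limma adjusted p = 0.0155), a call lost without stiff replicate 1, stiff replicate 3 or soft replicate 2 (limma adjusted p up to 0.0748). Adamts10 overlapped, at 16.7, 16.9 and 18.9 FPKM in stiff gels, against 15.1, 19.1 and 15.3 FPKM in soft gels (limma adjusted p = 0.674).

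Adamts19 and Adamts17 are each other's closest relatives, and their changes were opposite in sign. Adamts19 (chromosome 18, 58835992 to 59053682) had 28.2, 26.3 and 26.5 FPKM in stiff gels, against 20.8, 16.7 and 12.2 FPKM in soft gels, a difference of 0.70 ± 0.15 on the log2 scale (SE; limma adjusted p = 0.0323, and 0.0605 without the filter). Adamts17, which is linked to short stature and eye disease in human (chromosome 7, 66839699 to 67153171), had 9.60, 8.67 and 8.51 FPKM in stiff gels, against 14.7, 14.8 and 11.6 FPKM in soft gels, a difference of -0.56 ± 0.10 on the log2 scale (SE; limma adjusted p = 0.0159). Stiff libraries of both genes were tightly grouped, while the lowest soft value came from replicate 3 in both. Adamts19 was not called without any stiff library or without soft replicate 2 (limma adjusted p up to 0.122), and Adamts17 was not called without stiff replicate 1, stiff replicate 3 or soft replicate 2 (limma adjusted p up to 0.0756).

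Of the 7 listed members of the clade that cuts aggrecan and versican, 3 passed the filter. By limma with all libraries and no block 0 were called (2 had an unadjusted p under 0.05). The authors' deposited table has 4 of the 7 lower at q under 0.05. Adamts4, an aggrecanase, had 2.72, 3.51 and 1.63 FPKM in stiff gels, against 3.86, 10.1 and 11.1 FPKM in soft gels. Soft replicate 1 lay close to the stiff libraries, and the difference of -1.29 ± 0.33 on the log2 scale (SE; limma adjusted p = 0.0527) became -1.71 without it (limma adjusted p = 0.000686). With any other library left out Adamts4 was not called (limma adjusted p 0.0650 to 0.183). With all libraries and the replicate number as a block it was called lower (limma adjusted p = 0.0344). Adamts1 had 20.6, 18.3 and 21.7 FPKM in stiff gels, against 20.6, 26.3 and 30.6 FPKM in soft gels (limma adjusted p = 0.176). It was called lower without soft replicate 1 (log2 fold change -0.47, limma adjusted p = 0.0101) but not with any other library left out (limma adjusted p 0.258 to 0.477). Adamts8 was under the filter, with 13, 19 and 15 reads in stiff gels, against 31, 106 and 77 reads in soft gels. Without soft replicate 1 it passed the filter only through soft gels and was among the genes called lower. It could only enter that test as a lower gene. Adamts15 had 0.183, 0.353 and 0.257 FPKM in stiff gels, against 0.470, 0.504 and 0.579 FPKM in soft gels, while Adamts5 had 0.892, 0.933 and 0.814 FPKM in stiff gels, against 0.736, 0.563 and 0.705 FPKM in soft gels. Groups were apart for both, in opposite directions and below 1 FPKM. Vcan, a substrate of this clade, had 13.3, 11.2 and 14.8 FPKM in stiff gels, against 15.1, 14.8 and 13.4 FPKM in soft gels (limma adjusted p = 0.472). Among the procollagen N-propeptidases, Adamts2 had 3.84, 3.56 and 2.91 FPKM in stiff gels, against 2.68, 2.45 and 2.06 FPKM in soft gels. It was not called with all libraries and no block (limma adjusted p = 0.0741). It was called higher without soft replicate 1 (by 0.44 on the log2 scale, limma adjusted p = 0.0335) but not with any other library left out (limma adjusted p 0.0812 to 0.234). With the replicate number as a block it was called higher (limma adjusted p = 0.0437), and the authors' deposited table has it higher (q = 0.0128).

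Of the plasminogen activators, the abundant Plat was not called and the scarce Plau was. Plat, tissue plasminogen activator, had the highest FPKM of the 68 genes, with 288, 298 and 300 in stiff gels, against 284, 328 and 335 in soft gels (limma adjusted p = 0.560). Plau, urokinase, which activates plasminogen at the cell surface (chromosome 14, 20836662 to 20843388), had 0.857, 0.813 and 0.271 FPKM in stiff gels, against 1.36, 1.66 and 1.58 FPKM in soft gels. These are 35, 32 and 10 reads in stiff libraries, against 54, 68 and 65 reads in soft libraries. It fell by 0.64 ± 0.15 on the log2 scale (SE; limma adjusted p = 0.0419), a call lost with a pseudocount of 0.1, without the filter, and in 5 of the 6 fits that left out a library, all but the one without soft replicate 1 (limma adjusted p up to 0.148). Plaur, the urokinase receptor, had 6.77, 8.96 and 4.26 FPKM in stiff gels, against 11.99, 19.5 and 20.3 FPKM in soft gels (log2 fold change -1.27 ± 0.24 SE, limma adjusted p = 0.0211), with every stiff library below every soft one. Its call was lost without stiff replicate 1, stiff replicate 3, soft replicate 2 or soft replicate 3 (limma adjusted p up to 0.0944). Plaur was the 1 called gene among 7 tested partners of the system, where 5.81% of all tested genes were called. The median log2 fold change of the 7 was -0.17. Anxa2 and Eno1, which are more abundant, also had every stiff library below every soft one, without a call (limma adjusted p = 0.0619 and 0.0540). The authors' deposited table has both lower at q under 0.05. Groups of the other tested partners overlapped. Groups were thus apart, with stiff below, for 3 of 9 listed partners, where 24.8% of all listed genes had groups that did not overlap.

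Serpine2, protease nexin, an inhibitor of thrombin and the plasminogen activators, had 66.2, 77.9 and 56.2 FPKM in stiff gels, against 74.6, 90.1 and 94.8 FPKM in soft gels (limma adjusted p = 0.120). Soft replicate 1 fell within the stiff range while the other soft libraries lay above it. Without soft replicate 1 it was called lower, with a difference of -0.48 on the log2 scale (limma adjusted p = 0.0277). With any other library left out it was not called (limma adjusted p 0.0644 to 0.343). The authors' deposited table has Serpine2 lower (q = 0.01625).

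Among the hyaluronan genes only the synthase Has2 was called. Has2 (chromosome 15, 56665627 to 56694546) had 0.304, 0.631 and 0.395 FPKM in stiff gels, against 0.925, 1.16 and 1.42 FPKM in soft gels. The groups did not overlap, and the log2 fold change was -0.59 ± 0.13 (SE; limma adjusted p = 0.0323). Its call was lost without stiff replicate 1, stiff replicate 3, soft replicate 2 or soft replicate 3 (limma adjusted p up to 0.119), and Has2 overlaps an antisense RNA that was not analysed here. Cd44, the main hyaluronan receptor, had 41.4, 36.7 and 39.3 FPKM in stiff gels, against 41.2, 38.9 and 43.1 FPKM in soft gels (limma adjusted p = 0.630). Hyal1, a lysosomal hyaluronidase, had 4.93, 3.53 and 4.13 FPKM in stiff gels, against 3.64, 4.11 and 3.45 FPKM in soft gels (limma adjusted p = 0.562). Both overlapped between groups, and Hyal1 shares bases with Naa80, at 19.0 to 19.8 FPKM in stiff and 15.1 to 19.6 FPKM in soft gels. Has3, another synthase, and Cemip, which binds hyaluronan for its breakdown, were under the filter, at 0.0968 to 0.246 and 0.320 to 0.427 FPKM in stiff gels, against 0.112 to 0.270 and 0.294 to 0.392 FPKM in soft gels. Where 5.81% of all tested genes were called, 1 of 13 other tested genes of hyaluronan and its binding proteins rose and 0 fell. It was Itih2, a heavy chain that is linked to hyaluronan, with 9.63, 9.60 and 10.1 FPKM in stiff gels, against 7.58, 5.21 and 6.26 FPKM in soft gels (limma adjusted p = 0.0224). That call held in 1 of the 6 fits that left out a library, the one without soft replicate 1 (limma adjusted p up to 0.0885).

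**Figure D5:**
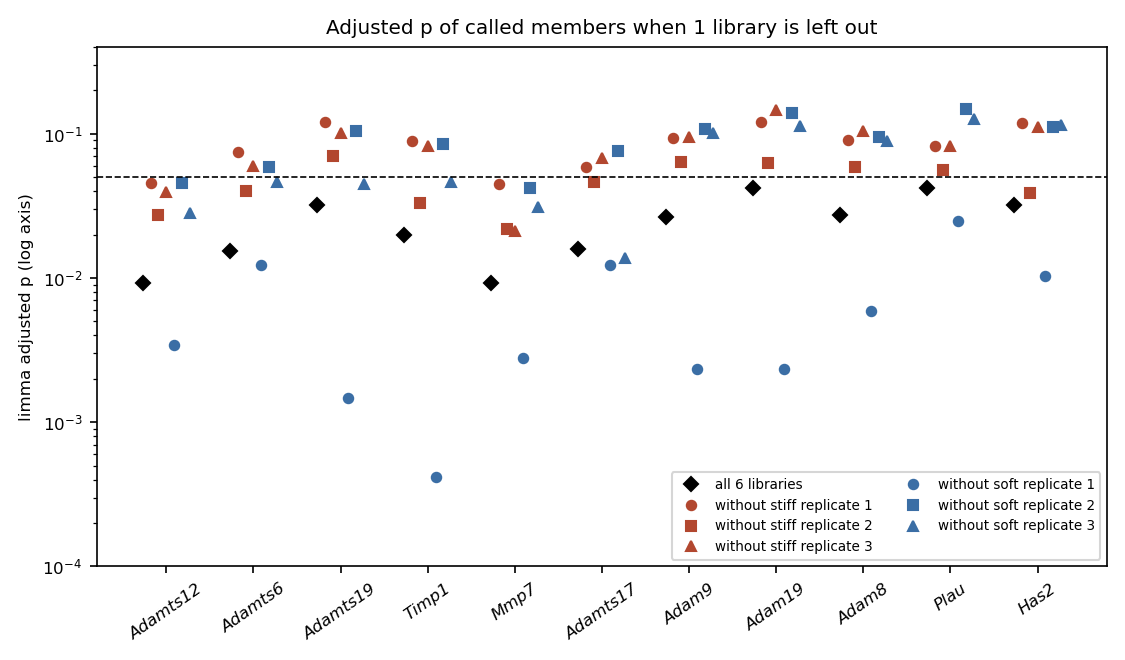
Benjamini-Hochberg adjusted p (limma, log axis) of the 11 called genes with all 6 libraries and with each library left out; the dashed line is 0.05. Adamts12 and Mmp7 stay under the line in every fit, up to 0.0459 and 0.0446, and the other 9 cross it in at least 3 fits.

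Partners of these proteases were counted in small lists, to be read against the 5.81% of all tested genes called (3.13% higher and 2.68% lower). Among 19 tested activators and membrane regulators of metalloproteases, 2 rose and 1 fell, with a median log2 fold change of -0.07. Rhbdf1, an iRhom that carries Adam17 to the cell surface, had 42.0, 39.5 and 43.9 FPKM in stiff gels, against 29.2, 31.3 and 27.1 FPKM in soft gels (0.50 ± 0.07 higher on the log2 scale, SE, limma adjusted p = 0.0101), and lost its call only without stiff replicate 1 among the fits that left out a library (limma adjusted p = 0.0503). Spock1, a proteoglycan also called testican, rose (log2 fold change 0.74, limma adjusted p = 0.0477) and Pcolce, which speeds the cutting of collagen precursors by Bmp1, fell (-0.54, limma adjusted p = 0.0468). Reck, a membrane inhibitor of MMPs, had 7.55, 7.33 and 7.61 FPKM in stiff gels, against 7.81, 8.08 and 8.58 FPKM in soft gels (limma adjusted p = 0.399). Bsg, an inducer of MMPs, had 501, 519 and 420 FPKM in stiff gels, against 534, 575 and 497 FPKM in soft gels (limma adjusted p = 0.383). Among 17 tested other pericellular proteases and inhibitors, 2 inhibitors rose, Spint1 and Cst3 (log2 fold change 0.36 and 0.27, limma adjusted p = 0.0176 and 0.0485), and 1 fell, Cst6 (-0.54, limma adjusted p = 0.0194). Of 16 tested substrates of ADAM proteases 2 rose, the Notch ligand Jag1 (0.81, limma adjusted p = 0.0129) and the EGF receptor ligand Tgfa (0.41, limma adjusted p = 0.0477), and 0 fell. In 3 other substrates, Cdh1, Cx3cl1 and Tnfrsf1a, every stiff library was below every soft one without a call (limma adjusted p = 0.130, 0.0592 and 0.0603). The authors' deposited table has these 3 lower, and 2 substrates higher, at q under 0.05. Of 22 listed substrates, groups did not overlap for 3 that were above and 3 that were below in stiff gels, where 24.8% of all listed genes had such groups. Each of these 7 calls, from Spock1 to Tgfa, was lost in at least 3 of the 6 fits that left out a library, with limma adjusted p up to 0.178.

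The labelled cell type was checked against marker genes. Epithelial and otic genes were present, with Epcam at 250 to 279 FPKM in stiff and 210 to 252 FPKM in soft gels. Cdh1, also epithelial, stood the other way, at 50.4 to 60.0 FPKM in stiff and 61.5 to 67.1 FPKM in soft gels (limma adjusted p = 0.130). Of the supporting and prosensory markers, 5 of 8 tested were higher in stiff gels, among them Sox2 (log2 fold change 1.33, limma adjusted p = 0.0104). The hair cell marker Myo7a was the only 1 of 5 hair cell markers to pass the filter, and summed hair cell markers were at 1.63 to 1.97 FPKM in stiff and 1.58 to 1.84 FPKM in soft gels. Summed fibroblast and mesenchyme markers, 9 of 10 listed, were at 699 to 729 FPKM in stiff gels, against 554 to 684 FPKM in soft gels, mostly from Lum and Dcn. None of the 7 tested was called (3 had an unadjusted p under 0.05 in limma), and Col3a1 stood the other way, at 36.4, 44.5 and 24.4 FPKM in stiff gels, against 43.4, 90.4 and 84.5 FPKM in soft gels. Col1a1 reached at most 0.198 FPKM, and Col1a2, under the filter, was lower in the authors' deposited table (q = 5.24e-05). Summed endothelial markers were at 340 to 426 FPKM in stiff and 391 to 457 FPKM in soft gels, nearly all of it Emcn, with Pecam1 at most 0.134 FPKM, and Kdr was called lower (log2 fold change -1.13, limma adjusted p = 0.0104). Summed glial markers were at 83.7 to 102 FPKM in stiff and 67.1 to 95.2 FPKM in soft gels. In bulk RNA, fewer cells of a type and less RNA per cell cannot be told apart, and the part of cell makeup in the protease and inhibitor values was not tested.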

How the data were processed

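RNA-seq libraries were aligned with TopHat2 2.1.1 to mm10 and compared with DESeq2, per the submitters' processing notes. The sources used here name neither a read counter nor an annotation. The authors deposited 1 table with a value per gene and library, taken as FPKM from the values since the header says only expression. It also holds a base mean (a signal averaged over libraries), per the file headers. Per the file headers, the authors' own comparison is given as log2 fold change with standard error, linear fold, test score, p-value and q-value. Reads were rebuilt from FPKM and base mean: 99.7% of values were whole within 0.05 reads, and all of those under 200 reads. They gave 16108468 to 17899389 reads per library over the listed genes, where 3 reads, the most that a count of 0 allows, are 0.168 to 0.186 CPM, for counting error only.

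limma 3.58.1 in R 4.3.3 was fitted to log2(FPKM + 1) of the 11780 genes with a mean of at least 1 FPKM in either group (eBayes with trend, no block), with Benjamini-Hochberg adjustment over all of them, and checked on simulated data. Stiff was compared with soft, 3 libraries each. Alternatives were a pseudocount of 0.1, no filter, median-of-ratios scaling, limma-voom with TMM factors (trims of 30% and 5%) on rebuilt reads, a replicate block and leaving out each library. Coordinates and promoters are RefSeq's for GRCm38.p6, the build of mm10, matched by the gene ID in the deposited table.

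Members and lists were chosen with earlier results of these data known. Genes named are all called members, the TIMPs, plasminogen activators, Serpine2 and hyaluronan genes, members of at least 10 FPKM, those called only without the filter, called partner genes, and role examples chosen after their values were seen (Mmp10, Mmp3, Mmp13, Mmp8, Adamts2, Adamts4, Adamts5, Adamts7, Adamts8, Adamts15). Timp4 and Has1 were not analysed here, and some results are not reported here.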

Additional observations from a re-analysis of the deposited data

How the results depend on the processing

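The counts rest on few libraries. Leaving out 1 library at a time gave 1 to 5 of the matrix protease and inhibitor genes higher and 1 to 16 lower, against 3 and 8 with all libraries, and over all tested genes 50 to 860 higher and 15 to 767 lower, against 369 and 316. Without soft replicate 1 the 11 calls all held and 10 were added; without soft replicate 2, stiff replicate 1 or stiff replicate 3 only those of Adamts12 and Mmp7 held. A pseudocount of 0.1, no filter, median-of-ratios scaling and limma-voom kept the counts of these genes within 1.5 times of 3 and 8, though without the filter Adamts19, Adam19 and Plau lost their calls. Among single genes of these families, signs turned for 6 that were not called: with a library left out, log2 fold changes ran from -0.23 to 0.027 for Adam15 (0.027, 0.027 and 0.023 without stiff replicate 3, soft replicate 2 and soft replicate 3), from -0.069 to 0.048 for Mmp14 (0.048 and 0.0065 without stiff replicate 3 and soft replicate 3), from -0.39 to 0.21 for Mmp9 (0.21 without stiff replicate 3) and from -0.19 to 8.07e-05 for Timp3 (without soft replicate 3). Mmp16, at -0.011 with all libraries, was at 0.11 and 0.046 without stiff replicate 3 and soft replicate 3, Mmp23 was at 0.0010 without stiff replicate 1, and the cause was not tested. The difference in the log2 ratio of TIMP to metalloprotease sums was -0.32, and between -0.38 and -0.22 with a library left out. It was -0.68 without Timp3 and Mmp14, and Timp1 was in the TIMP sum in all of these ratios. With the replicate number as a block, 5 of these genes were higher and 9 lower: the 11 calls held, Adamts2 and Mmp15 were added as higher and Adamts4 as lower. Deviations of same-numbered libraries had r = 0.00873, 0.22 and -0.21 across genes, and those of the other pairs ran from -0.382 to 0.347. With 3 libraries per group, these values cannot decide whether a shared number marks a shared culture.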
